A study of Mus musculus with 8 samples.

Results

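Neuropeptide precursor genes encode the large proteins from which neurons cut their peptide transmitters and hormones, together with the granins, acidic proteins stored with these peptides. The list held 38 genes, and each was looked up by its symbol in the annotation of the array platform. A probe set with that symbol alone was found for 36 of them, out of 19938 genes that could be named in this way, and each of the 36 had a single probe set. The orexigenic peptide gene *Agrp* and the calcitonin gene *Calca* had none and were not analysed here.

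A precursor enters the secretory pathway and is sorted into dense core vesicles. There, prohormone convertases cleave it at pairs of basic residues, a carboxypeptidase trims the ends and an amidating enzyme finishes many of the peptides. Midbrain dopamine (mdDA) neurons are known to hold peptides beside dopamine, among them cholecystokinin and neurotensin.

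The arrays covered 4 groups with 2 arrays each. The mdDA domain of the ventral midbrain (VM) and a lateral domain outside of it were cut by laser from *BAT-gal* embryos of embryonic day E12.5 on a mixed B6D2F1 background, a line that carries a beta-galactosidase reporter of WNT/b-catenin signaling, with tissue of 5 embryos pooled per domain. The mdDA domain was stained for PITX3 and beta-galactosidase, and the lateral domain was negative for both. The other groups were GFP-positive mdDA neurons sorted from the VM of *Pitx3* GFP/+ embryos at E13.5 and at E14.5, on a mixed C57BL/6 x 129/Ola background, in which 1 *Pitx3* allele carries GFP. Sex was not determined. The labels call the arrays of a group technical replicates, so every p-value below measures the spread between arrays and not that between embryos. Tissue and sorted cells also differ in stage, strain, genotype and isolation, which cannot be told apart in their comparison.

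All values are log2 levels from RMA, the authors' normalization. A level that unexpressed genes may reach was taken from 1023 probe sets of olfactory receptor genes. Its 95th percentile, called the reference level here, lay between 4.34 and 4.50 on the arrays of dissected tissue and between 4.07 and 4.14 on those of sorted neurons. It is no detection call. Dopamine neuron markers were above it on both arrays for 8 of 9 genes in the mdDA domain and for 9 of 9 in both sorted groups. In the lateral domain 7 of 9 were above it as well, so this count hardly sets the 2 domains apart. The mean level of these markers ranged from 7.74 to 7.82 in the mdDA domain, from 5.13 to 5.18 in lateral tissue and from 9.13 to 9.23 in sorted neurons. The marker that was not above the reference level in the mdDA domain was *Aldh1a1*.

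Of the 36 precursor genes, 15 lay above the reference level on both arrays of the mdDA domain, 15 in the lateral domain, 22 in E13.5 neurons and 21 in E14.5 neurons. The median of all probe sets was 4.57 to 4.60 on the dissected arrays and 4.39 on the sorted arrays. It exceeded the reference level on every array, so most probe sets of each array lay above that level. The counts therefore do not set the precursor genes apart. *Kiss1*, for example, was below the median on both mdDA arrays (4.53 and 4.37). In all 4 groups 12 were above it, namely *Chgb*, *Chga*, *Sst*, *Cort*, *Pomc*, *Pnoc*, *Npy*, *Ghrh*, *Kiss1*, *Oxt*, *Nmb* and *Npff*. Another 12 were above it in no group. These were *Tac2*, *Trh*, *Crh*, *Ucn*, *Nmu*, *Nms*, *Vip*, *Nts*, *Npvf*, *Npb*, *Calcb* and *Adm*, with levels from 2.74 to 4.77 over all arrays. Single arrays of some of these genes still lay above the reference level. Examples are *Calcb* with 4.77 on mdDA array 1 and *Adm* with 4.67 on E13.5 array 2. The neurotensin gene *Nts* was among the 12, with 3.71 and 3.57 at E13.5 and 3.11 and 3.02 at E14.5. The granin gene *Vgf*, *Penk*, *Pdyn*, *Tac1*, *Avp*, *Grp* and *Gal* lay above the reference level in at least 1 sorted group and in neither dissected domain. For *Avp* and *Pdyn* this rests on the lower reference level of the sorted arrays. *Avp* had 4.38 to 4.42 in sorted neurons and 4.49 and 4.63 in the mdDA domain, and *Pdyn* had 3.88 to 4.37 and 4.31 and 4.17.

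**Figure D1:**
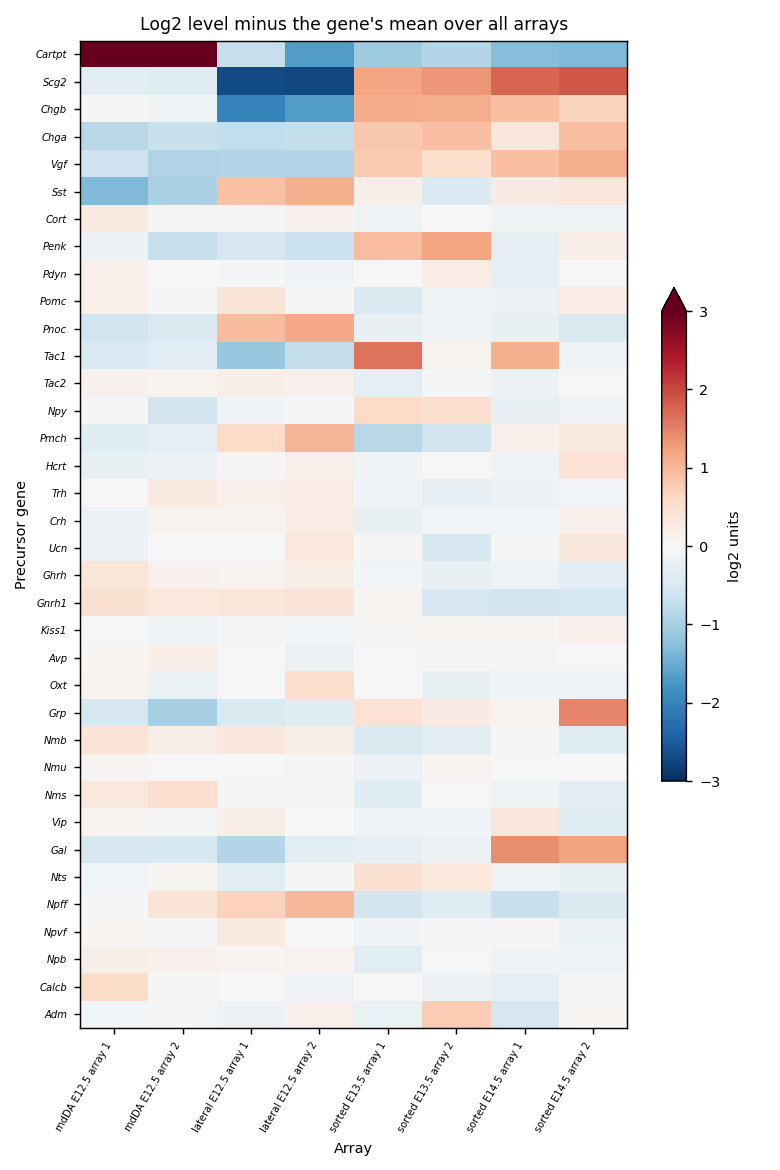
Heat map of the 36 precursor genes (rows) on the 8 arrays (columns), coloured by the log2 level minus the mean of that gene over all arrays. *Cartpt* stands out on both mdDA arrays, where it passes the end of the colour scale, *Scg2* and *Chgb* are low on both lateral arrays, and most rows are near 0 throughout.

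Several precursor genes share a DNA element near their start. The cyclic AMP response element TGACGTCA, a palindrome bound by factors of the CREB family and known from the somatostatin promoter, was searched in windows of 300 bases (250 before and 50 after the gene start, RefSeq, GRCm38.p6). Of the 28 listed genes with such a window, 5 held it (17.9%), against 549 of 27025 genes (2.03%). These were *Cartpt*, *Sst*, *Scg2*, *Chgb* and *Ucn*. The first 4 are shown and were chosen by their levels in the domains. By the tests given below *Scg2* and *Chgb* were higher and *Sst* was lower in the mdDA domain, where *Cartpt* was high without a test. A part of the element in these levels was not tested. Each line gives 30 bases, with the element in capitals.
Cartpt: ccggcgggcatTGACGTCAaacggcagcgg
Scg2: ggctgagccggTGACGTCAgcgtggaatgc
Chgb: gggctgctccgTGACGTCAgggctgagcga
Sst: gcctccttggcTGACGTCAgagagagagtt

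The stretches lie at chr13:99900777-99900806 (minus strand), chr1:79440076-79440105 (minus strand), chr2:132781559-132781588 (plus strand) and chr16:23890874-23890903 (minus strand), and the element begins 112, 68, 72 and 48 bases before the listed start. The annotated spans of *Cartpt* and *Sst* reach beyond these windows, so that a transcript model begins farther upstream. For *Scg2* and *Chgb* the listed start is the edge of the gene, and the 150 bases before it are given to show the element in its context, intergenic with respect to these genes.
Scg2 (chr1:79440027-79440176): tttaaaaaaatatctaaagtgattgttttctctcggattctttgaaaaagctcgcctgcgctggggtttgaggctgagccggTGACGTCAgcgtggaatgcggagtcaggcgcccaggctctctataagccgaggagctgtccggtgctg
Chgb (chr2:132781492-132781641): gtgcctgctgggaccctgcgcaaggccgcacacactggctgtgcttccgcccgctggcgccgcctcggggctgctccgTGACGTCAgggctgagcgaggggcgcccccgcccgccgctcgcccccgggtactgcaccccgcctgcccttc
A match of letters does not show that a factor binds there, and binding was not measured.

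*Cartpt*, which encodes the cocaine- and amphetamine-regulated transcript peptide, a peptide of feeding and reward circuits, was high in the mdDA domain alone. The arrays of the mdDA domain read 9.33 and 9.60 (log2), those of the lateral domain 5.32 and 4.35, and the sorted neurons 4.94 and 5.14 at E13.5 and 4.73 and 4.70 at E14.5. Both mdDA arrays lay above all others, while the lateral arrays spanned the values of both sorted groups, so that no order among these 3 groups goes beyond the spread. The mdDA mean of 9.46 ± 0.19 (SD, n = 2 arrays) exceeded the lateral mean of 4.83 ± 0.69 (SD, n = 2) by 4.63 (24.8-fold) and the mean of the sorted neurons by 4.59 (24.0-fold). One lateral array lay above the reference level and the other below it, while both arrays of each sorted group lay above it. *Cartpt* was singled out with this pattern known, so its differences are a description and carry no test here. The arrays of both dissected domains hold mixed tissue, in which fewer cells of a type and less RNA per cell cannot be told apart.

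The pattern for which *Cartpt* was singled out was counted over all named genes. Because *Cartpt* was chosen for it, its own place in this count is a description and adds no support. In 23 of 19938 genes the lower mdDA array lay at least 1 log2 unit above the highest of the other 6 arrays. *Cartpt* had the widest margin (4.01). The protocadherin genes *Pcdh9* and *Pcdh11x* followed with margins of 2.30 and 2.29, then *Postn*, a matrix protein gene (2.18), *Plxdc2* (1.98), *Eya1*, a transcriptional coactivator gene (1.71), *Ptprk*, a receptor phosphatase gene (1.64), *Corin*, which encodes a protease of natriuretic peptide precursors (1.63), *Sim1*, a transcription factor gene of neurosecretory neurons (1.54), and the axon guidance receptor gene *Robo3* (1.43). With a margin of 2 log2 units 4 genes remained.

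Some markers of other neurons were highest in the mdDA domain, as *Cartpt* was, and others were not. Of 5 measured motor neuron markers 3 were above the reference level in the mdDA domain and none was in any other group, and the mean level of the list was between 4.64 and 4.69 on the mdDA arrays and between 3.67 and 3.92 on the others. *Isl1*, a motor neuron transcription factor gene, had 5.52 and 6.05 in the mdDA domain and at most 4.52 elsewhere, and the vesicular acetylcholine transporter gene *Slc18a3* had 5.19 and 4.72. *Chat* and *Phox2a* were not above the reference level on both arrays of any group. *Pou4f1*, known from the red nucleus, had 7.61 and 7.99 in the mdDA domain, 8.42 and 8.60 in lateral tissue and 4.68 to 5.36 in sorted neurons. Of 6 hypothalamic markers 3 were above the reference level in the mdDA domain and 3 in E13.5 neurons. In the lateral domain and in E14.5 neurons 2 were above it each. *Sim1* had 5.90 on both mdDA arrays, *Otp* had 5.53 on both there and 5.69 to 6.13 elsewhere, and *Six3* had 4.78 and 4.77 there and 6.29 and 6.14 in lateral tissue, while *Nkx2-1*, *Rax* and *Six6* were below the reference level on the mdDA arrays. Glutamatergic markers were above the reference level for 2 of 4 genes in every group. Of the serotonin neuron markers 1 of 3 was above it, namely *Gata3*, which is also among the GABAergic markers here. *Tph2* and *Slc6a4* were below it in every group. Endothelial markers were above it for 2 of 5 in the dissected and 1 of 5 in the sorted groups, and microglial markers for 1 or 2 of 4. The part of such cells in the *Cartpt* level was not tested.

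**Figure D2:**
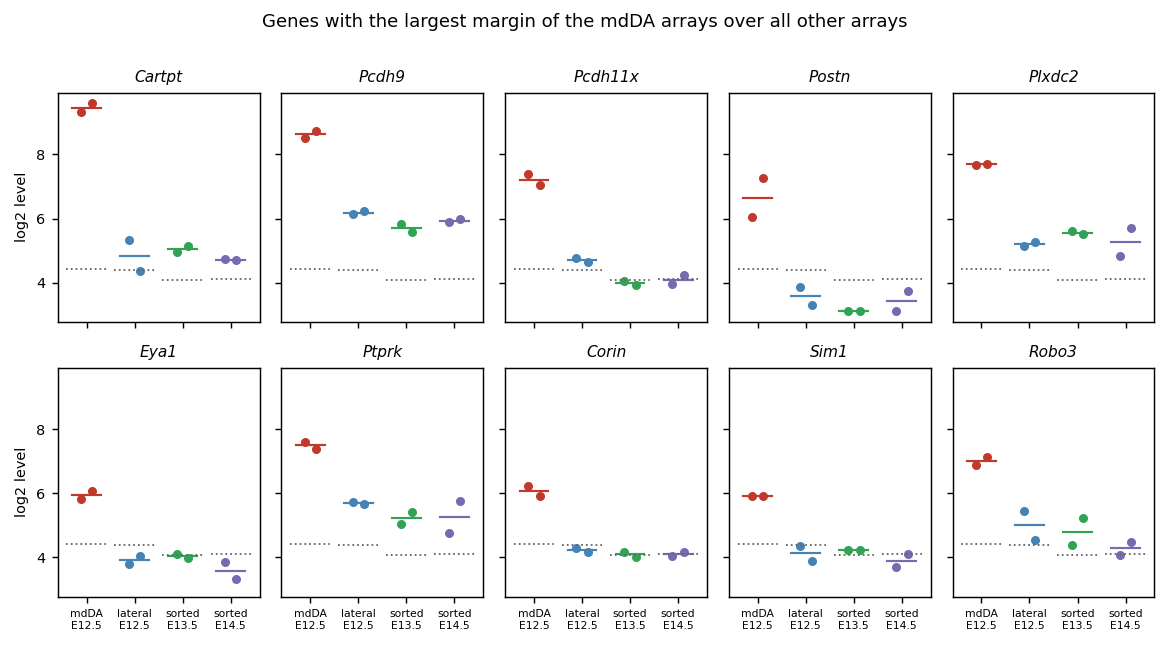
Log2 level on each array (points) with the group mean (bar) and the mean reference level of the group (dotted) for the 10 genes with the widest margin of the mdDA arrays over all other arrays. *Cartpt* reaches 9.60 on an mdDA array, and none of its other arrays exceeds 5.32.

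With *Cartpt* left aside, 5 of the other 35 precursor genes (14.3%) passed the paired limma test between the domains at a false discovery rate below 10%, 2 of them higher and 3 lower in the mdDA domain. Over all probe sets 2.62% passed, 1.52% higher and 1.10% lower. The median difference was -0.001 for the 35 genes and -0.01 for all probe sets. The 30 genes that did not pass had log2 differences between -0.66 (*Npff*) and 0.54 (*Tac1*). The shares over all probe sets, also used below, include 12146 probe sets with no gene symbol. In a fit of only the 21789 probe sets with 1 gene symbol, 7 of the 35 genes (20.0%) passed, 3 higher and 4 lower. Of these probe sets 1342 were higher and 1160 lower, so the precursor genes stood out less from that background. With mdDA array 1 or 2 left out 0 of the 35 passed in limma (8 and 7 at an unadjusted p under 0.05). Without lateral array 1 or 2 the higher genes were 1 and 2 and the lower ones 0 each (6 and 6 at an unadjusted p under 0.05). Such fits leave 1 array in a domain, which is assumed to vary like the others.

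The granin genes *Scg2* (secretogranin II) and *Chgb* (chromogranin B) were higher in the mdDA domain. *Scg2* read 6.67 and 6.65 (log2) in mdDA tissue but 4.34 and 4.30 in lateral tissue, where both arrays lay below the reference level. The log2 difference came to 2.34 ± 0.15 (standard error; adjusted p = 0.0326 from limma), at least 4.79-fold when the lateral level is set to the reference level. *Chgb* had 8.70 and 8.54 against 6.65 and 7.00, which differ by 1.79 ± 0.19 (standard error; adjusted p = 0.0609 from limma) or 3.47-fold. *Chga*, the gene of the related chromogranin A, did not pass, with levels of 6.64 and 6.79 against 6.72 and 6.75 (difference -0.02, adjusted p = 0.975 from limma). *Vgf*, whose product is the source of several neuroendocrine peptides, had 4.38 and 4.10 against 4.11 and 4.12, each below the reference level of its array, and did not pass either (adjusted p = 0.832 from limma). The mean level of 7 neural progenitor markers was 7.12 on both mdDA arrays and 8.27 to 8.31 on the lateral arrays, and 4 of the 7 were lower in the mdDA domain. Their part in the granin differences was not tested.

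*Sst*, *Pnoc* and *Pmch* were lower in the mdDA domain. The somatostatin gene *Sst*, whose peptide is made by many inhibitory neurons, read 6.06 and 6.43 in mdDA tissue and 8.27 and 8.46 in lateral tissue, with a log2 difference of -2.12 ± 0.15 (standard error; adjusted p = 0.0384 from limma). *Pnoc*, the gene of the opioid-like peptide nociceptin, had 4.80 and 4.96 against 6.34 and 6.54, a difference of -1.56 (adjusted p = 0.0493 from limma). Neither gene had overlapping arrays. *Pmch*, which encodes melanin-concentrating hormone, had 4.18 and 4.27 in the mdDA domain, below the reference level, and 5.12 and 5.58 in the lateral domain. Its log2 difference was -1.12 (adjusted p = 0.0919 from limma), at least 1.90-fold when the mdDA level is set to the reference level. After repeated quantile normalization *Pmch* did not pass. The mean level of 6 GABAergic neuron markers was between 7.68 and 7.82 on the lateral arrays and between 4.60 and 4.87 on the mdDA arrays, and all 6 were above the reference level in the lateral domain. Their part in these 3 differences was not tested. *Cort*, the relative of *Sst*, had 5.57 and 5.34 against 5.34 and 5.43, and the other opioid genes *Penk*, *Pdyn* and *Pomc* did not pass (log2 differences 0.15, 0.17 and -0.17).

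**Figure D3:**
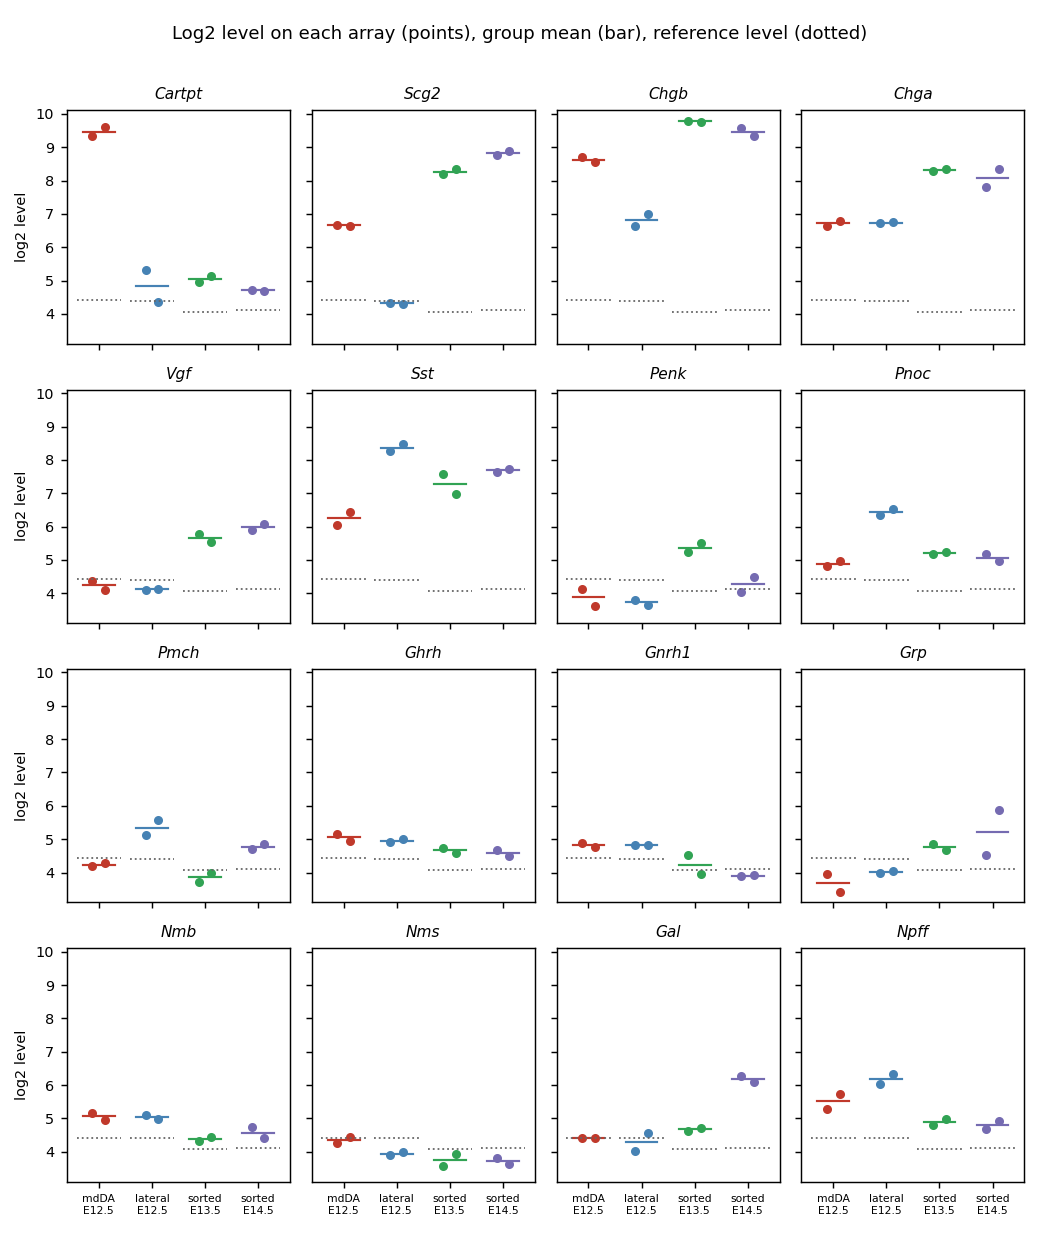
Log2 level on each array (points), group mean (bar) and mean reference level of the group (dotted) for *Cartpt*, which has no test, and the precursor genes that passed the test between the domains or between sorted neurons and the mdDA domain. *Scg2* and *Chgb* rise from the lateral domain over the mdDA domain to the sorted neurons, while *Sst*, *Pnoc* and *Pmch* are highest in the lateral domain.

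In the sorted neurons, 8 of the 35 precursor genes other than *Cartpt* were higher and 5 were lower than in the mdDA domain (limma over all 8 arrays, false discovery rate below 10%), together 37.1%. Of all probe sets 18.4% passed, 8.53% higher and 9.84% lower. The median difference was -0.03 for the 35 genes and -0.08 for all probe sets. The split depends on scaling. With arrays centred on their medians 11 of the 35 were higher and 1 was lower (15.7% and 5.01% of all probe sets), and after repeated quantile normalization 10 and 1 (7.30% and 7.34%), while the median of all probe sets moved to 0.12 and 0.02. The mdDA arrays are shared with the comparison of the domains, so both sets of calls are not independent.

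All 4 granin genes were higher in the sorted neurons, under each scaling. *Scg2* had 8.20 and 8.34 at E13.5 and 8.76 and 8.89 at E14.5, all above the mdDA arrays, with a log2 difference of 1.89 ± 0.10 (standard error; adjusted p = 9.21e-04 from limma) or 3.70-fold. *Vgf* had 5.77 and 5.52 at E13.5 and 5.89 and 6.07 at E14.5, with a difference of 1.58 (adjusted p = 0.00319 from limma), at least 2.63-fold over the reference level. *Chga* had 8.28 and 8.36 at E13.5 and 7.81 and 8.36 at E14.5 (difference 1.49, adjusted p = 0.00644), and *Chgb* 9.79 and 9.76 at E13.5 and 9.57 and 9.34 at E14.5 (difference 1.00, adjusted p = 0.0114, both from limma). For each of the 4 genes the sorted arrays did not overlap with the mdDA arrays. These calls were also kept with any single array left out. Over the same comparison the mean level of 7 progenitor markers was 7.12 on both mdDA arrays and between 5.52 and 5.75 on the sorted arrays, and the mean of 4 erythroid markers was between 8.11 and 8.14 and between 4.09 and 4.25. The part of these cells in the granin differences was not tested.

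Among the small peptides, *Sst*, *Penk*, *Gal* and *Grp* were higher in the sorted neurons. *Sst* had 7.58 and 6.99 at E13.5 and 7.65 and 7.73 at E14.5, between the mdDA and the lateral arrays (1.24 ± 0.20, standard error, above the mdDA domain; adjusted p = 0.0151 from limma). Of 6 GABAergic markers 5 were above the reference level in these neurons and 4 in the mdDA domain. In limma 4 of the 6 were higher in sorted neurons, among them *Gad2*, a GABA synthesis gene, with 7.56 to 7.97 against 5.29 and 5.31, while *Tal2* and *Gata2* did not pass. Their part in the *Sst* difference was not tested. *Gal*, the gene of galanin, had 4.40 on both mdDA arrays, 4.62 and 4.72 at E13.5 and 6.28 and 6.09 at E14.5 (difference 1.03, adjusted p = 0.0168 from limma). The enkephalin gene *Penk* had 4.13 and 3.62 in the mdDA domain, 5.22 and 5.49 at E13.5 and 4.04 and 4.50 at E14.5 (difference 0.94, adjusted p = 0.0341 from limma). Both mdDA arrays and 1 E14.5 array lay below the reference level, so no least fold difference can be given. The E14.5 arrays also overlapped with the mdDA arrays. The gastrin-releasing peptide gene *Grp* had 3.94 and 3.42 in the mdDA domain, 4.84 and 4.66 at E13.5 and 4.53 and 5.87 at E14.5 (difference 1.29 ± 0.36, standard error; adjusted p = 0.0699 from limma), at least 1.47-fold when the mdDA level is set to the reference level. It did not pass with the replicate block (adjusted p = 0.101) or, among others, with either mdDA array left out (adjusted p = 0.175 and 0.283 from limma). Without mdDA array 1 neither *Sst* (adjusted p = 0.108) nor *Gal* (0.107) passed, and without mdDA array 2 *Penk* did not (0.167, all from limma).

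The remaining lower genes were *Gnrh1*, *Nmb*, *Nms*, *Npff* and *Ghrh*, and their differences were small. The gonadotropin-releasing hormone gene *Gnrh1* had 4.90 and 4.76 in the mdDA domain, 4.52 and 3.94 at E13.5 and 3.88 and 3.93 at E14.5 (difference -0.76, adjusted p = 0.0393 from limma). It was above the reference level on 1 of the 4 sorted arrays, and it did not pass with mdDA array 1 or 2 left out (adjusted p = 0.207 and 0.132 from limma). *Npff* read 5.29 and 5.74 in the mdDA domain and 4.68 to 4.99 in sorted neurons, *Nmb* 5.17 and 4.95 against 4.33 to 4.74, *Nms* 4.25 and 4.45 against 3.57 to 3.92, and *Ghrh* 5.17 and 4.94 against 4.49 to 4.74. None of these genes had overlapping values in the mdDA domain and the sorted neurons. *Nms* was above the reference level on 1 mdDA array and on no sorted array, so its difference lies among values that unexpressed genes may reach. Their log2 differences were -0.58 (*Nmb*, neuromedin B), -0.62 (*Nms*, neuromedin S), -0.66 (*Npff*, neuropeptide FF) and -0.43 (*Ghrh*, growth hormone-releasing hormone), with adjusted p from 0.0414 to 0.0743 in limma. The reference level itself differed by -0.33 in the sorted neurons, and these 4 genes did not pass after centring or repeated quantile normalization. *Tac1*, the substance P gene, had 6.31 and 4.81 at E13.5 and 5.75 and 4.57 at E14.5 against 4.24 and 4.34 in the mdDA domain, a difference of 1.07 that did not pass (standard error 0.48, adjusted p = 0.210 from limma).

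**Figure D4:**
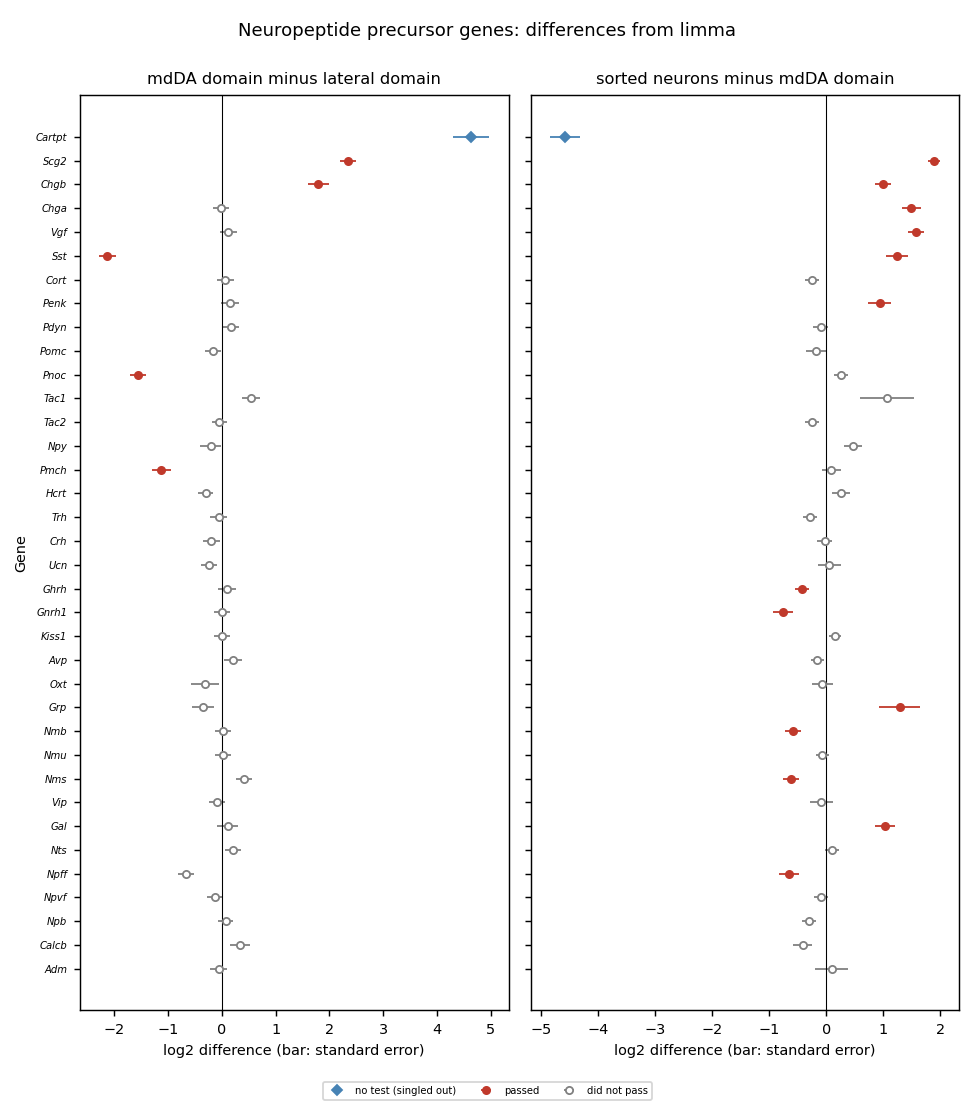
Log2 differences with standard errors from limma for the 36 precursor genes, mdDA minus lateral domain (left) and sorted neurons minus mdDA domain (right). Filled red points passed a false discovery rate of 10%, open points did not, and the blue diamond is *Cartpt*, which has no test. The 4 granin genes *Scg2*, *Chgb*, *Chga* and *Vgf* all lie to the right of 0 in the right panel, and *Scg2* and *Chgb* also do in the left one.

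Between E13.5 and E14.5 neurons none of the 36 genes passed (limma over the 4 sorted arrays), and 0.00% of all probe sets did. The lowest adjusted p of a precursor gene was 0.667. At an unadjusted p under 0.05 there were 6 precursor genes (16.7%), 3 in each direction, and 2156 probe sets (6.06%). These 6 were *Gal* (log2 difference 1.52), *Pmch* (0.92) and *Scg2* (0.56) with higher values at E14.5 and *Penk* (-1.09), *Npy*, the neuropeptide Y gene (-0.71), and *Nts* (-0.58) with lower ones. *Nts* was below the reference level on all of these arrays. *Npy* had 6.33 and 6.22 at E13.5 and 5.51 and 5.62 at E14.5, *Pmch* 3.71 and 4.00 and then 4.71 and 4.84. For each of the 6 genes both arrays of one stage lay on the same side of both arrays of the other. This adds no support, because the 6 genes were chosen by their p on these same arrays. No difference between the stages is shown by the adjusted test.

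Genes that process and release peptides were also compared. The list was chosen with earlier results of these data known, so its shares are a description. Of 24 measured genes 3 passed as higher and none as lower in the mdDA domain against lateral tissue (1.52% of all probe sets were higher). The median log2 difference of the list was 0.32, against -0.01 for all. In sorted neurons 11 were higher and none was lower than in the mdDA domain (45.8%, against 8.53% of all probe sets). The median was 0.38 against -0.08. With arrays centred on their medians 15.7% of all probe sets were higher. *Syt4*, a synaptotagmin gene of dense core vesicles, had mean levels of 7.05, 8.90, 9.99 and 9.77 in lateral tissue, mdDA tissue, E13.5 and then E14.5 neurons. *Pam*, which encodes the peptide-amidating enzyme, had 4.40, 6.19, 6.96 and 7.03 in the same order (difference between the domains 1.79, adjusted p = 0.0445 from limma), and the convertase inhibitor gene *Pcsk1n* had 7.25, 8.29, 8.77 and 8.95. *Qpct*, the gene of glutaminyl cyclase, which forms pyroglutamate ends, rose by 1.56 in the sorted neurons (adjusted p = 0.0105), and *Scg5*, the gene of the convertase chaperone 7B2, by 1.06 (adjusted p = 0.00949, both from limma). *Cadps2*, a vesicle priming gene, was below the reference level on both mdDA arrays and was at least 1.48-fold higher in the sorted neurons (fitted difference 1.15, adjusted p = 0.0105 from limma). The convertase gene *Pcsk1* and the carboxypeptidase gene *Cpe* did not pass in either comparison.

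**Figure D5:**
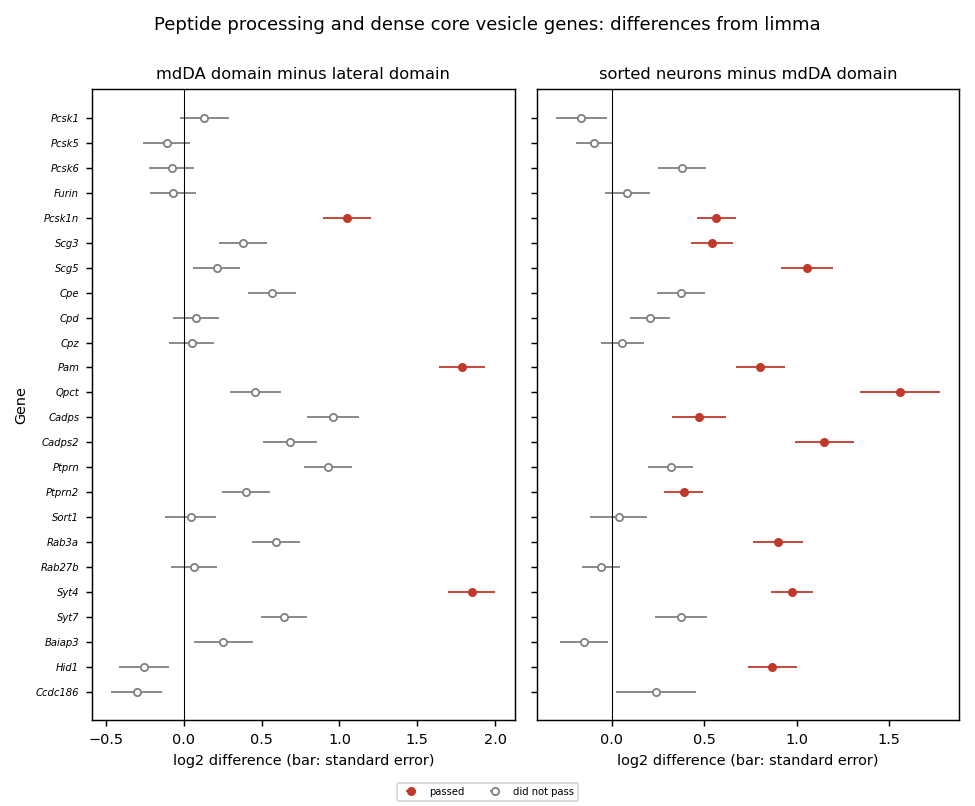
Log2 differences with standard errors from limma for 24 peptide processing and dense core vesicle genes, mdDA minus lateral domain (left) and sorted neurons minus mdDA domain (right), with filled red points for genes that passed a false discovery rate of 10%. All filled points, 3 on the left and 11 on the right, lie to the right of 0.

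Of 23 other precursor genes that were measured, *Cck* and *Adcyap1* (2 genes) passed as higher in mdDA against lateral tissue (8.70%, against 1.52% of all probe sets), and none was lower. *Adcyap1*, the gene of the peptide PACAP, had mean levels of 6.21 and 5.28 there (difference 0.93, adjusted p = 0.0992 from limma). In sorted neurons *Cck* and *Nucb2*, the nesfatin gene (1.17, adjusted p = 0.0310), were higher than in the mdDA domain and *Iapp*, the amylin gene (-1.08, adjusted p = 0.00434, both from limma), was lower. These are 8.70% higher and 4.35% lower, against 8.53% and 9.84% of all probe sets. *Iapp* was below the reference level on all sorted arrays, so that its level was at least 1.52-fold lower there.

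Of 54 neuropeptide receptor genes 2 passed as higher and 1 as lower in mdDA against lateral tissue, and 5 were higher and 7 lower in sorted neurons than in the mdDA domain. Of all probe sets 1.52% and 1.10% passed in the first comparison and 8.53% and 9.84% in the second, so that the share of receptor genes in the second is near the background. *Tacr1*, the receptor gene of substance P, averaged 7.11 in mdDA tissue, 5.24 in lateral tissue and 4.71 and 5.05 in E13.5 and E14.5 neurons, with differences of 1.88 between the domains (adjusted p = 0.0434) and -2.23 between sorted neurons and the mdDA domain (adjusted p = 0.0105, both from limma). Like *Cartpt* it is among the 23 genes whose mdDA arrays both lay at least 1 log2 unit above all other arrays. *Avpr1a*, a vasopressin receptor gene, had 4.04 in the lateral domain, 5.15 in the mdDA domain and 6.96 and 6.83 in E13.5 and E14.5 neurons and passed in both comparisons (1.11, adjusted p = 0.0725, and 1.75, adjusted p = 0.0177, from limma). Both of its lateral arrays lay below the reference level, so that the first difference is at least 1.68-fold. The somatostatin receptor gene *Sstr2* was lower in the mdDA domain, as was *Sst* (difference -1.52, adjusted p = 0.0641 from limma). *Mc3r*, a melanocortin receptor gene, was higher in sorted neurons (1.08, adjusted p = 0.0384 from limma, with 1 of 2 mdDA arrays above the reference level), and *Ramp2*, which encodes a partner of the calcitonin-like receptor, was lower (-1.16, adjusted p = 0.0168 from limma).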

How the data were processed

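RNA of 4 groups of samples was measured on 8 Mouse Gene 1.0 ST arrays (Affymetrix). The log2 values that the authors deposited come from RMA with sketch-quantile normalization in Expression Console 1.2 and were used unchanged. Groups came from the sample titles. Of 35556 probe sets 21789 had 1 gene symbol, and only these are named. All 36 precursor genes matched the RefSeq table by gene identifier. The number of arrays limits the precision.

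Domains were compared by limma 3.58.1 (R 4.3.3) on 4 arrays with the replicate number as block, after the paired test of the methods, which do not say what pairs the arrays. Sorted neurons were compared with the mdDA domain over 8 arrays, and both stages of sorted neurons over 4, without block. All probe sets entered the Benjamini-Hochberg adjustment. Figures used matplotlib 3.10.9 under Python 3.11.15, and tables pandas 2.3.3.

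The precursor genes and the lists were chosen with earlier results of these data known. Values are given for all arrays for genes that passed and for *Cartpt*. From the other lists up to 4 genes per comparison that passed, by size of difference, and the 10 genes with the widest mdDA margin, are named. *Aldh1a1*, *Cort*, *Avp*, *Pdyn*, *Tac1*, *Nts*, *Pcsk1*, *Cpe* and the marker genes were named after their values were seen.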

Additional observations from a re-analysis of the deposited data

How the results depend on the processing

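*Cartpt*, which has no test in the report, is counted in this paragraph unless stated otherwise. It was chosen for its pattern, so its own calls in these counts add no support. With *Cartpt* left aside, 2 genes were higher and 3 lower between the domains, with or without the replicate block. In sorted neurons 8 of the other genes were higher and 5 lower, and 7 and 5 with the replicate block. The counts that follow include *Cartpt* wherever it passed. Between the domains the 3 higher and 3 lower genes were 3 and 3 with no replicate block, and same-numbered arrays did not deviate together (correlations of deviations from -0.037 to 0.013). With the replicate block 7 genes were higher and 6 lower in sorted neurons, and 0 and 0 between the stages. Leaving out 1 array gave 0 to 3 higher and 0 to 0 lower genes between the domains, 6 to 8 higher and 2 to 6 lower in sorted neurons and 0 between the stages. Without mdDA replicate 1 or 2 there were 2 lower genes in sorted neurons, and without E13.5 replicate 1 there were 3. After repeated quantile normalization and after centring the count of lower genes in sorted neurons was 2 each, and 1 each without *Cartpt*. No difference of a gene that had passed changed sign in these alternatives. No gene had a second probe set, so that choice changed nothing. At the 90th and 99th percentile of olfactory receptors, 26 and 8 genes were above the level in the mdDA domain and 23 and 8 in the lateral domain. At the 99th percentile 12 were above it in E13.5 and 10 in E14.5 neurons. The counts above a fixed level are therefore uncertain, as are changes near it. The mdDA pattern held for 4 genes at a margin of 2 and for 28 and 17 after quantile normalization and centring.

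Over all probe sets the domains gave 541 higher and 390 lower, and 829 and 605 with no replicate block, 857 and 618 without dim probe sets, 937 and 709 with trend and robust priors, 130 and 97 at a false discovery rate of 5%, 1342 and 1160 with 1 gene symbol, and at most 96 and 74 with an array left out. Sorted neurons gave 3032 and 3500, and 5580 and 1782 after centring, 1970 and 1965 at 5%, 949 and 1088 without mdDA replicate 1 and 1328 and 1464 without mdDA replicate 2. The stages gave 9 and 11 in a fit of 8 arrays.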

Other observations

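Some precursor genes differed widely between the technical arrays of a group. Over the 36 genes the median difference between the arrays of a group was 0.13 to 0.19 log2 units, against 0.17 to 0.20 over all probe sets. The widest gap in each group was 1.50 for *Tac1* at E13.5 (6.31 and 4.81), 1.34 for *Grp* at E14.5 (4.53 and 5.87), 0.97 for *Cartpt* in the lateral domain (5.32 and 4.35) and 0.52 for *Npy* in the mdDA domain (5.71 and 5.19). *Tac1* also differed at E14.5, with 5.75 and 4.57. With E13.5 replicate 2 left out *Tac1* passed as higher in the sorted neurons than in the mdDA domain.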
